A study of Mus musculus with 12 samples.

Results

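The 34 genes described here encode the contractile apparatus of smooth muscle, and they were chosen by name out of the 35241 gene symbols listed for full-thickness distal colon of 12 mice. Transcripts of a gene were summed after repeated entries had been dropped, and all 34 members were above the filter on low values. The study deleted Sprouty2 from the intestinal epithelium. In the 6 Spry2IEKO mice (genotype label KO) both floxed Spry2 alleles were present together with Cre under the villin promoter, and the 6 Spry2FF littermates had the same floxed alleles without Cre. Litter A held 3 mice of each genotype (2 males and 1 female Spry2FF, 3 female Spry2IEKO), and litter B also held 3 of each (1 male and 2 female Spry2FF, 1 male and 2 female Spry2IEKO). The labels give 6 weeks of rearing and collection at 8 weeks, and the study's methods 8 to 10 weeks. Villin drives Cre in epithelial cells and not in muscle, so the cells that express most of these genes are not the cells that lose Spry2. The tissue was homogenized whole, and each mouse gave 1 library. No label names a shared extraction, and replicates are numbered 2 to 13 over the 2 genotypes.

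The wall of the colon is enclosed by a circular and a longitudinal layer of smooth muscle, with a thin muscle sheet under the mucosa. Smooth muscle shortens when calcium entering the cell binds calmodulin and activates myosin light chain kinase, which phosphorylates the regulatory light chain so that myosin pulls on actin filaments anchored in dense bodies. Acetylcholine from enteric neurons starts this through muscarinic receptors, and relaxation follows when myosin phosphatase removes the phosphate. Most genes of the apparatus share control by serum response factor and its coactivator myocardin, which act at a short promoter element called the CArG box.

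Promoter sequences are shown for the members with a CArG box near the start of transcription, since this is the element that the regulation of these genes is known for. RefSeq windows of 300 bases on GRCm38.p6, from 250 bases before to 50 after the start, were found for 29 of the 34 members. No window was matched for Myh11, Nexn, Myocd, Tagln and Actg2. The CArG box was searched as the exact pattern CCWWWWWWGG, where W is A or T, so that a box on either strand is found. It was present in a window of 3 of these 29 members (10.3%) and of 1.81% of all 27025 genes with a window. Variants with another base inside the pattern were not counted, so the other members are not shown to lack a box. Capitals mark the box, and each window is written 5′ to 3′ on the strand of its gene. In Myl9 (chr2:156775214-156775513, plus strand) the box began 161 bases before the start. In Ldb3 (chr14:34588632-34588931, minus strand) it began 35 bases before, and a second start of this gene nearby had the same box in its window. In Fhl1 (chrX:56779433-56779732, plus strand) it began 102 bases before a start that lies inside the gene.
Myl9: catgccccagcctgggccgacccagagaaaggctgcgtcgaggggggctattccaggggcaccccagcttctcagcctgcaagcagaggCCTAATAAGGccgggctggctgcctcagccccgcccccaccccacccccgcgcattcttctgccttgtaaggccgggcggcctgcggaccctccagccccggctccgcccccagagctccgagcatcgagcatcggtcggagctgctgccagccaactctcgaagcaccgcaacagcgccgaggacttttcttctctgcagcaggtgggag
Ldb3: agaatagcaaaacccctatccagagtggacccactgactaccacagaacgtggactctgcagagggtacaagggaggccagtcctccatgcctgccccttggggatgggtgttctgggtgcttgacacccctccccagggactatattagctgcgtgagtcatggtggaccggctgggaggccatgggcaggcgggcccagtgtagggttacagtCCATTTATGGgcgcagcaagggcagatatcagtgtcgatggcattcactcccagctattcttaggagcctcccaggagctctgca
Fhl1: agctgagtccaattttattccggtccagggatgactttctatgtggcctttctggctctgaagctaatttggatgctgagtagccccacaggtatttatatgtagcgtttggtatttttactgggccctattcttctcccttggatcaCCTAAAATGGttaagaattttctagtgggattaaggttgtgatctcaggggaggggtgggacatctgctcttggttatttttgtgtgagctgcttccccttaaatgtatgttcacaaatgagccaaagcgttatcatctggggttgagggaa
A match is a description of the letters and not of binding. The 3 members with the box do not form a group in the values below, where the SD of the log2 level over the 12 mice was 0.49 for Myl9, 0.16 for Fhl1 and 0.13 for Ldb3, the lowest of all members.

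Values are called normalized TPM here, abundances that correct for transcript length, so that levels can be compared between genes. The totals ran from 918816 to 1069158 per mouse, unlike plain TPM, which have the same total in every library. How the values were scaled between mice is not given in the sources used here, and each comparison between mice rests on that scaling. They are not read counts. The study's methods state 1 approximate depth for all libraries, the depth of each library is not given in the sources used here, and so no counting interval is given. Genotype labels were checked by Spry2 itself, which was 22.8 to 32.3 (median 28.4) in Spry2FF and 18.5 to 22.5 (median 19.3) in Spry2IEKO mice, with no overlap. The labelled sex was checked by a sum over 4 Y-linked genes, of which no male had under 113 and no female over 2.76. Spry2IEKO replicate 8, the only male of its genotype, had the highest value of all 12 mice for 25 of the 34 members. Spry2IEKO replicate 12, a female of the same litter, had the lowest for 26. It also had the fewest genes above 0, at 18655 against 19062 to 19753 in the other mice. Replicates 8 and 12 belong to the same group, and several of the results that rest on either are also given without it.

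The sum of the members ran from 7036 to 16561 normalized TPM, which was 0.66% to 1.64% of the total of the mouse. By mean level over the 12 mice, the most abundant were the actin-binding Tagln (1326), Actg2 (1123), Acta2 (1082), and the tropomyosins Tpm1 (1038) and Tpm2 (832). The least abundant were the muscarinic receptor Chrm3 (2.11), the coactivator Myocd (3.02), the integrin Itga8 (3.51) and the calcium channel Cacna1c (4.44). The thin filament regulators summed to 4245 ± 728 (SD, n = 6) in Spry2FF mice, actin and myosin to 3496 ± 869, and the genes of intermediate filaments, dense bodies and adhesion to 2756 ± 397. In these mice the 3 regulators of myosin phosphorylation came to 200 ± 32.0, and the 6 genes of channels, junctions and receptors to 50.1 ± 7.03.

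Whether deletion of Sprouty2 in the epithelium went with a change in the muscle genes was asked first. Summed over the 34 members, the share of the total was 1.09% ± 0.255 (SD, n = 6) in Spry2FF and 1.02% ± 0.339 (SD, n = 6) in Spry2IEKO mice. The Spry2FF mice ran from 0.849% to 1.51% with a median of 1.04%, and the Spry2IEKO mice from 0.66% to 1.64% with a median of 0.983%. The Spry2IEKO range enclosed that of the controls. No member passed the threshold of 0.05 for the adjusted p of limma (lowest 0.842), against 5 of the 15880 genes tested, 0.0315%. At an unadjusted p under 0.05 the count was also 0 of 34, against 6.18% of all genes. It was 4 without Spry2IEKO replicate 8, 2 with sex in the fit and at most 1 under the other alternatives. The share of all genes in those fits is not given here. The genotypes overlapped in every member, against 0.189% of all genes with all Spry2IEKO mice higher and 0.214% with all lower. In this bulk tissue a change in the number of muscle cells and a change in RNA per cell could not be told apart.

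**Figure D1:**
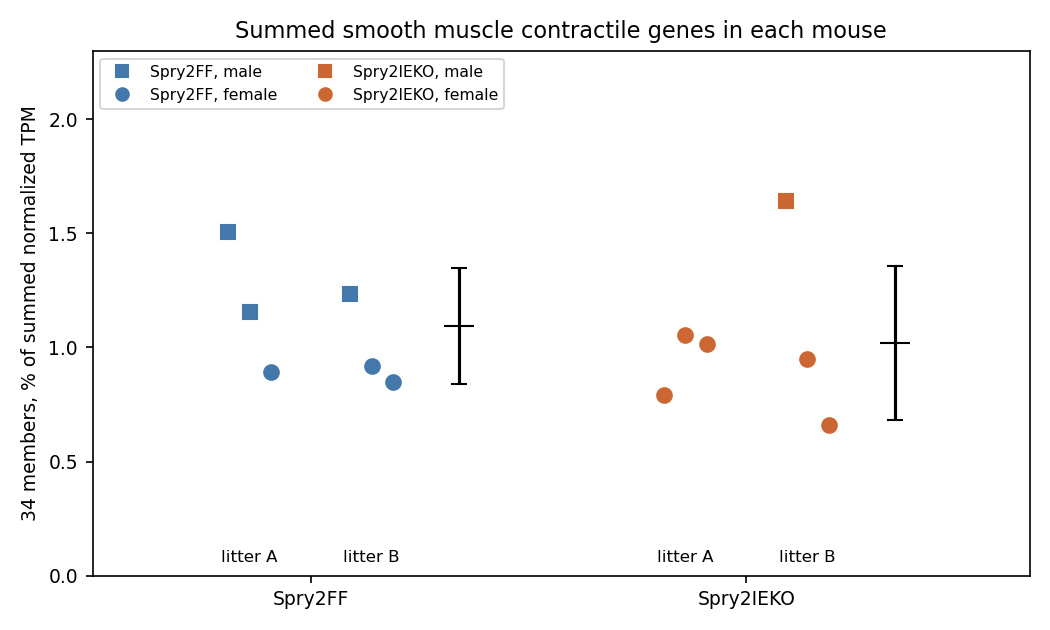
Summed normalized TPM of the 34 members as % of the total of each mouse, by genotype and litter. Squares are males and circles females, and bars at the right of each group are mean ± SD (n = 6). The 4 males lie between 1.15% and 1.64%, above all 8 females.

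Actin and myosin form the motor. Smooth muscle myosin heavy chain Myh11 (ENSMUSG00000018830, chr16:14194535-14291372) was 350 to 603 (median 432) in Spry2FF mice and 244 to 772 (median 388) in Spry2IEKO mice. The log2 difference, Spry2IEKO minus Spry2FF, was -0.20 with a standard error (SE) of 0.237 (limma, adjusted p = 0.919). The Spry2IEKO mice held both the highest and the lowest value.

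Enteric gamma actin Actg2 (ENSMUSG00000059430, chr6:83512905-83536265), the actin isoform typical of visceral muscle, was 789 to 1677 (median 1098) in Spry2FF mice and 832 to 1884 (median 952) in Spry2IEKO mice. The difference was -0.07 (SE 0.231, limma adjusted p = 0.973). Alpha actin Acta2 (ENSMUSG00000035783, chr19:34241090-34255590), which is also made by vessel walls and myofibroblasts, was 855 to 1544 (median 1115) in Spry2FF and 682 to 1511 (median 993) in Spry2IEKO mice. In both actins the groups overlapped over most of their range. The regulatory light chain Myl9 (ENSMUSG00000067818, chr2:156775420-156781658) was 543 to 994 (median 727) in Spry2FF and 382 to 1413 (median 662) in Spry2IEKO mice, a difference of -0.16 (SE 0.257).

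Among the regulators of myosin phosphorylation, the kinase Mylk (ENSMUSG00000022836, chr16:34745210-35002420) was 111 to 165 (median 136) in Spry2FF and 78.3 to 223 (median 136) in Spry2IEKO mice. The medians were the same, and the Spry2IEKO values were spread more widely. Ppp1r14a (ENSMUSG00000037166, chr7:29289308-29293801), the inhibitor of myosin phosphatase known as CPI-17, was 15.3 to 28.5 (median 23.3) in Spry2FF and 8.14 to 32.9 (median 18.8) in Spry2IEKO mice, a difference of -0.25 (SE 0.29, limma adjusted p = 0.915). Ppp1r12b, a targeting subunit of the phosphatase, differed by -0.08.

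The 7 thin filament regulators, which include the tropomyosins, caldesmon Cald1, calponin Cnn1, smoothelin Smtn and leiomodin Lmod1, had differences from -0.16 to 0.03 (median -0.11). The 13 genes of intermediate filaments, dense bodies and adhesion ranged from -0.36 to 0.05 (median -0.11). Desmin Des (ENSMUSG00000026208, chr1:75360329-75368579), the muscle intermediate filament, was 346 to 591 (median 426) in Spry2FF and 272 to 682 (median 370) in Spry2IEKO mice, and the ranges overlapped almost fully. The largest difference of any member was that of the small heat shock protein Hspb7 (ENSMUSG00000006221, chr4:141420779-141425311), at 10.3 to 17.3 (median 15.8) in Spry2FF and 6.96 to 18.5 (median 11.5) in Spry2IEKO mice. It was -0.36 (SE 0.215, limma adjusted p = 0.842), and 1 Spry2IEKO mouse was above all the controls.

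Receptors and channels set when the muscle contracts. The muscarinic receptor Chrm2 (ENSMUSG00000045613, chr6:36388084-36528414) was 7.46 to 13.7 (median 8.99) in Spry2FF and 7.58 to 11.9 (median 8.14) in Spry2IEKO mice. Chrm3 (ENSMUSG00000046159, chr13:9875486-10360847), the receptor through which acetylcholine is chiefly known to contract the gut, was 1.60 to 2.86 (median 2.24) in Spry2FF and 0.748 to 2.74 (median 2.23) in Spry2IEKO mice. For neither receptor was there a separation, and their differences were -0.07 (SE 0.159) and -0.19 (SE 0.231). Kcnmb1 (ENSMUSG00000020155, chr11:33963013-33973641), the beta subunit of the large calcium-activated potassium channel, was 6.34 to 9.81 (median 7.84) in Spry2FF and 4.98 to 10.5 (median 7.19) in Spry2IEKO mice. Myocardin Myocd (ENSMUSG00000020542, chr11:65176561-65269989), the coactivator of serum response factor, was 0.965 to 4.16 (median 3.15) in Spry2FF and 0.808 to 5.55 (median 2.88) in Spry2IEKO mice. It varied more between mice than any other member, by 6.86-fold from the lowest to the highest mouse, and differed by 0.01 (SE 0.385) between the genotypes.

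Over all 34 members the median difference was -0.10, against 0.01 over all genes tested, and 4 of 34 were above 0, against 52.1% of all genes. This lean was small beside the spread between mice. Of 10 epithelial markers 5 were lower in Spry2IEKO mice at an unadjusted p under 0.05, as were 2 of 7 tested skeletal muscle markers. None was higher at that p and none passed, and the part of these cells in the lean was not tested. Males were 3 of the 6 Spry2FF and 1 of the 6 Spry2IEKO mice. With sex in the fit the median was 0.09, and with litter and sex it was also 0.09, 25 of 34 members were above 0, and no member passed (lowest limma adjusted p 0.806). Without Spry2IEKO replicate 8 the median was -0.24, and without Spry2IEKO replicate 12 it was 0.00. Among females alone the summed share was 0.887% ± 0.0352 (SD, n = 3) in Spry2FF and 0.895% ± 0.165 (SD, n = 5) in Spry2IEKO mice.

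**Figure D2:**
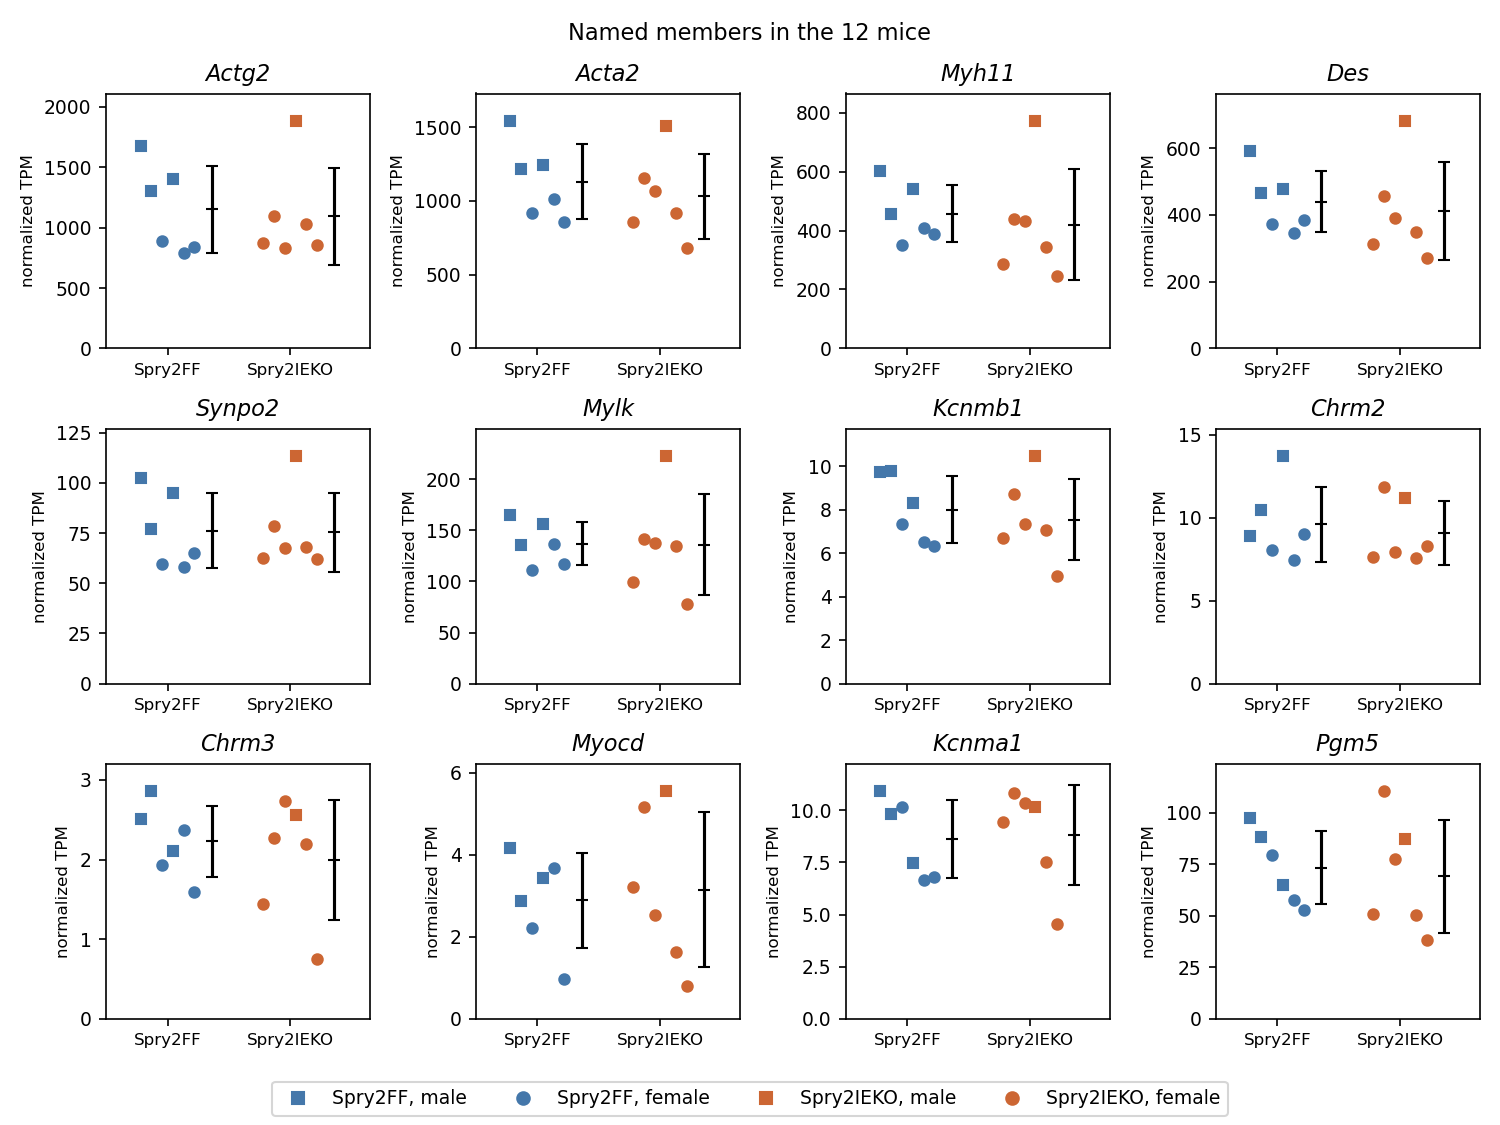
Normalized TPM of 12 members in each mouse, by genotype, with squares for males, circles for females and bars for mean ± SD (n = 6). The genotypes overlap in every panel, while the 4 males are the highest values for Actg2, Acta2, Myh11 and Des.

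Litter was the other labelled grouping, with 3 mice of each genotype in either litter, and it coincided with the number at the front of the library label, so litter and that label cannot be told apart. Of all genes, 696 (4.38%) passed the threshold between the litters with genotype in the fit, and no member did. The summed share was 1.07% ± 0.249 (SD, n = 6) in litter A and 1.04% ± 0.348 (SD, n = 6) in litter B. The median log2 difference, litter B minus litter A, was -0.03 over the members and -0.05 over all genes, and 14 of 34 members (41.2%) were above 0, the same share as of all genes. At an unadjusted p under 0.05 there were 3 members, against 21.9% of all genes, namely Kcnma1, Pgm5 and Fhl1. The count was 8 without Spry2IEKO replicate 8, 6 in females alone and 0 in Spry2IEKO mice alone. The share of all genes in those fits is not given here. The litters overlapped in every member, against 0.781% of all genes with litter B higher and 2.94% with it lower.

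Kcnma1 (ENSMUSG00000063142, chr14:23289431-24014491) encodes the pore of the potassium channel that limits contraction. It was 10.9, 9.80 and 10.1 in the Spry2FF and 9.44, 10.8 and 10.3 in the Spry2IEKO mice of litter A. In litter B it was 7.46, 6.64 and 6.82 in the Spry2FF and 10.2, 7.53 and 4.57 in the Spry2IEKO mice. Of the litter B mice 5 were below all 6 of litter A, and Spry2IEKO replicate 8 lay among them. The difference was -0.51 (SE 0.146, limma adjusted p = 0.0673), and without Spry2IEKO replicate 8 it was -0.62 and passed (limma adjusted p = 0.0196). It also passed with each mouse scaled to the same total, at -0.59 (limma adjusted p = 0.0409).

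Pgm5 (ENSMUSG00000041731, chr19:24683016-24861855), a protein of adherens junctions and dense plaques also called aciculin, was 97.2, 88.0 and 79.7 in Spry2FF and 50.9, 110 and 77.5 in Spry2IEKO mice of litter A. It was 64.8, 57.6 and 52.9 in Spry2FF and 87.2, 50.3 and 38.3 in Spry2IEKO mice of litter B. The litters overlapped through 1 low mouse of litter A and through Spry2IEKO replicate 8. The difference was -0.52 (SE 0.203, limma adjusted p = 0.157), or -0.68 without that replicate (limma adjusted p = 0.0433). The LIM protein Fhl1 differed the other way, by 0.20 (SE 0.0707, limma adjusted p = 0.124). Myocd had the next largest difference, -0.46 (SE 0.377). Marker genes of other cell types differed between the same litters. All 5 endothelial markers and 3 of 5 fibroblast markers (Pdgfra, Col1a1 and Col3a1) were lower in litter B at the threshold, with summed levels of 39.5 to 74.9 in litter A against 16.9 to 28.8 in litter B for endothelium and 407 to 671 against 231 to 394 for fibroblasts. Both markers of interstitial cells of Cajal, Ano1 (-0.47) and Kit (-0.29), and 2 of 5 tested markers of pericytes and vascular muscle were lower in litter B at an unadjusted p under 0.05, and none of these passed. Of 10 epithelial markers, Cdh1 was lower in litter B at the threshold (-0.22, limma adjusted p = 0.0282). Another 3 were higher at an unadjusted p under 0.05. At that p 2 of 5 fat markers, 1 of 10 tested neuron markers and 1 of 7 tested skeletal muscle markers were lower. None of these but Cdh1 passed. The part of these cells in the values of Kcnma1 and Pgm5 was not tested.

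The genotype difference itself was compared between the litters by an interaction term. No member passed (lowest limma adjusted p 0.998), against 2 genes in all, 0.0126%. None had an unadjusted p under 0.05, against 4.19% of all genes, while 1 did without Spry2IEKO replicate 8 and 1 without replicate 12. The term was above 0 in 26 of 34 members, against 46.2% of all genes. The median over the members was 0.12, against -0.02 over all genes, and it was -0.29 with sex in the fit. Actg2 had an interaction of 0.71 (SE 0.454).

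**Figure D3:**
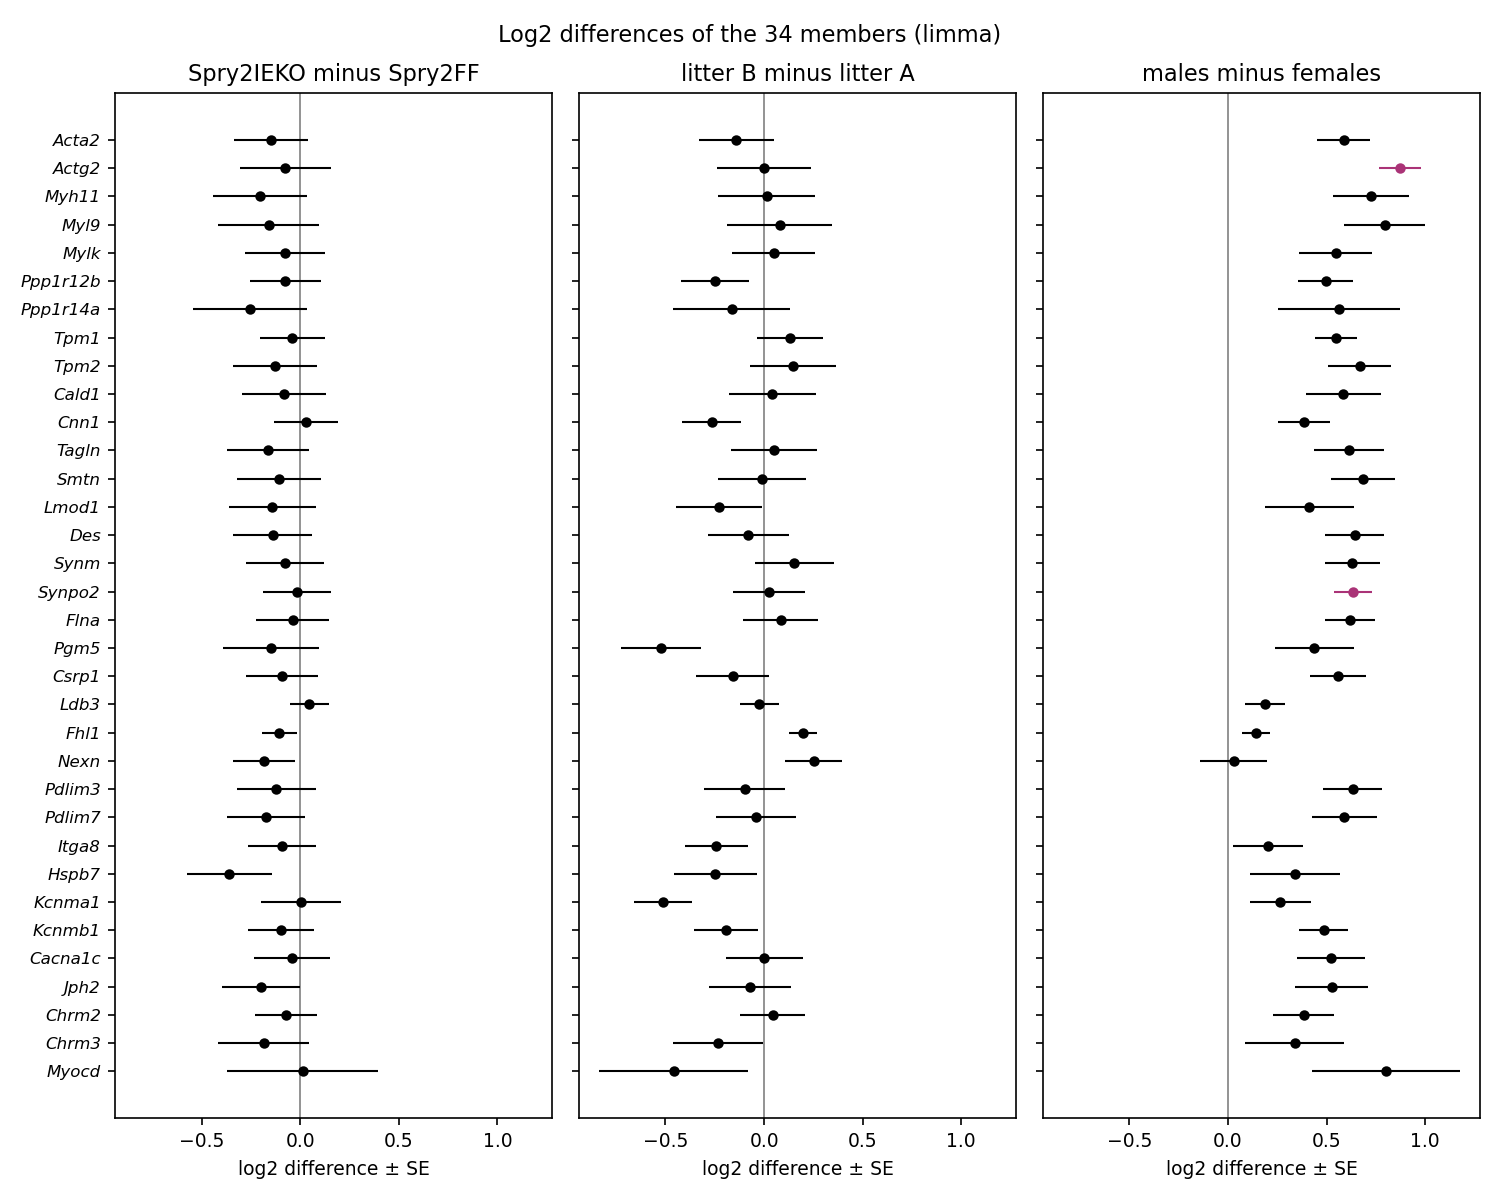
Log2 differences ± SE (limma) of the 34 members for genotype, litter and sex, with 0 as a grey line. Actg2 and Synpo2 in the comparison of males and females are the 2 values past the threshold, drawn in purple, and all 34 members lie to the right of 0 in that panel.

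The members rose and fell together from mouse to mouse. The SD of a member over the 12 mice was 0.37 on the log2 scale at the median, against 0.25 over all genes tested, and it was 0.17 once the mean of the members in each mouse had been subtracted. As a description over 12 mice that share tissue and table, Pearson's r of a member with the mean of the other members had a median of 0.90 and was at least 0.9 for 17 members. It was highest for Myh11 (0.98) and the LIM protein Csrp1 (0.98) and lowest for Nexn (0.43), Fhl1 (0.49), Ldb3 (0.56) and Chrm2 (0.59). Acta2 and Des stood at 0.98, and Actg2 at 0.83.

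**Figure D4:**
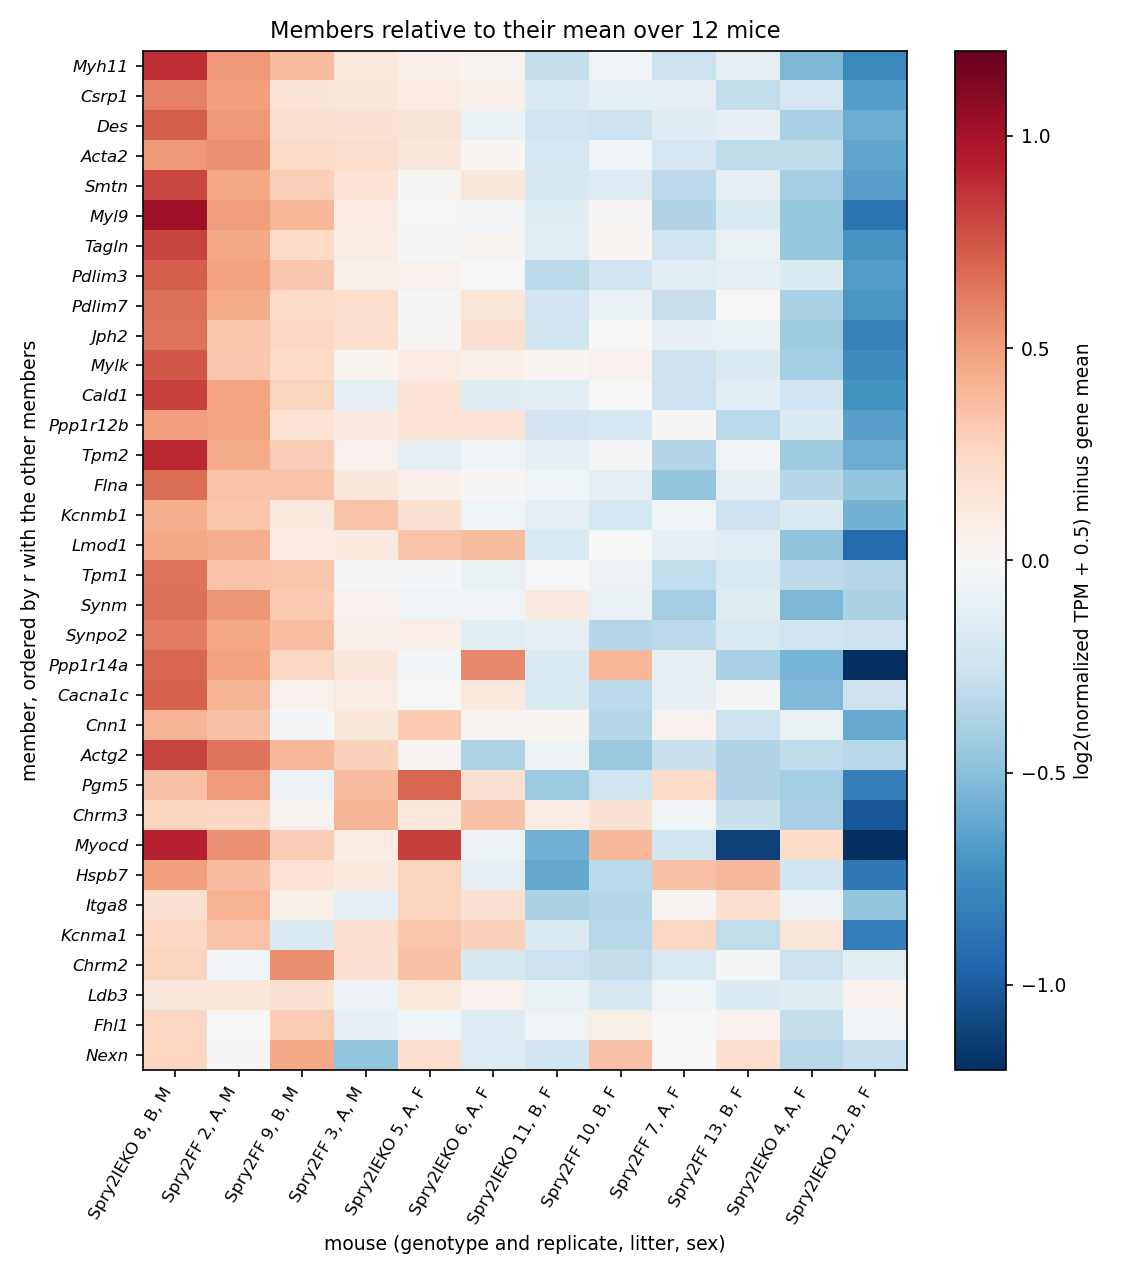
Log2(normalized TPM + 0.5) of each member minus its mean over the 12 mice, in red above and blue below the mean, with mice from left to right by summed share and members from top to bottom by r with the other members. The 4 leftmost mice are the 4 males, and Spry2IEKO replicate 12 at the right is the lowest for 26 members.

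The labelled sex of the mice ran along this shared variation. The males were compared with the females after the values of the members had been seen, so the p-values given are those of a comparison chosen for its appearance. The summed share was 1.51%, 1.15% and 1.23% in the male Spry2FF mice and 1.64% in the male Spry2IEKO mouse. It was 0.893%, 0.918% and 0.849% in the female Spry2FF mice and 0.791%, 1.06%, 1.01%, 0.95% and 0.66% in the female Spry2IEKO mice. All 4 males were above all 8 females.

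With genotype and litter in the fit, 2 members passed the threshold, both higher in males, against 16 of all genes (0.101%), of which 11 (0.0693%) were higher in males. At an unadjusted p under 0.05 there were 23 of the 34 members, against 8.41% of all genes. The median log2 difference, males minus females, was 0.55 over the members and -0.01 over all genes, and all 34 were above 0, against 48% of all genes. A difference above 0.5 was found in 21 of 34, against 3.57% of all genes. Every male was above every female in 13 members, against 0.535% of all genes, and below every female in none, against 0.567%. Within the Spry2FF mice, 3 males and 3 females, this was so in 20 members (5.31% of all genes), in litter A in 16 (8.07%) and in litter B in 26 (8.6%). Since the members rise and fall together, these counts are not those of independent genes.

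Actg2 was 1677, 1304 and 1404 in the male Spry2FF mice and 1884 in the male Spry2IEKO mouse. In the 8 females it was 789 to 1096, with a median of 863. The groups did not overlap, and the difference was 0.87 (SE 0.106, limma adjusted p = 0.00839). It was 0.76 in the Spry2FF mice alone, 0.73 in litter A and 0.90 in litter B, none of which passed on their own. Without Spry2IEKO replicate 8 it was 0.78 and no longer passed (limma adjusted p = 0.15).

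Synpo2 (ENSMUSG00000050315, chr3:123076519-123236149), synaptopodin 2, an actin-binding protein of dense bodies and Z discs, was 102, 77.1 and 95.1 in the male Spry2FF mice and 113 in the male Spry2IEKO mouse. In the females it was 58.2 to 78.3 with a median of 64.0, so that 1 female lay just above the lowest male. The difference was 0.64 (SE 0.0957, limma adjusted p = 0.0394). It passed without Spry2FF replicate 3 or Spry2IEKO replicate 5, and it did not pass when any other single mouse was left out (limma adjusted p 0.056 to 0.385).

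Of the remaining motor genes, Myh11 was 603, 456, 540 and 772 in the males and 244 to 438 (median 369) in the females, and Acta2 was 1544, 1217, 1241 and 1511 against 682 to 1159 (median 918). Neither overlapped, with differences of 0.73 (SE 0.192, limma adjusted p = 0.301) and 0.59 (SE 0.135, limma adjusted p = 0.216). Myl9 was 994, 747, 925 and 1413 in the males and 382 to 706 (median 628) in the females, a difference of 0.79 (SE 0.205, limma adjusted p = 0.295). The coactivator Myocd had the second largest difference, 0.80 (SE 0.375, limma adjusted p = 0.602). It was 4.16, 2.88, 3.42 and 5.55 in the males and 0.808 to 5.15 (median 2.38) in the females, which overlapped. Desmin was 591, 466, 476 and 682 in the males and 272 to 458 (median 361) in the females, again with no overlap. The other members without overlap were Tpm2, Tagln and Smtn of the thin filament, Flna, Csrp1, Pdlim3 and Pdlim7 of dense bodies and adhesions, and Jph2, which ties the cell membrane to its calcium store.

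The receptors, channels and junction gene had a median sex difference of 0.43 over 6 members. The genes of actin and myosin had one of 0.76 over 4, a contrast that was not tested. Mean levels were 2.11 to 16.4 in the first group and 439 to 1123 in the second. The 0.5 added before the log lessens the differences of low genes. Chrm2 was 8.92, 10.5, 13.7 and 11.2 in the males and 7.46 to 11.9 (median 8.01) in the females. Chrm3 was 2.51, 2.86, 2.11 and 2.55 in the males and 0.748 to 2.74 (median 2.07) in the females. Kcnmb1, at 9.73, 9.81, 8.33 and 10.5 against 4.98 to 8.73 (median 6.88), overlapped through 1 female. Mylk was 165, 136, 156 and 223 against 78.3 to 142 (median 126). The smallest differences were those of Nexn (0.03, SE 0.171), Fhl1 (0.14, SE 0.0704), Ldb3 (0.19, SE 0.101) and the integrin Itga8 (0.20, SE 0.179). Nexn, Fhl1 and Ldb3 are also the members with the lowest r with the rest. The mean of the rest itself ran with sex, so the low r is not a separate trait.

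Without Spry2IEKO replicate 8, which left Spry2FF males alone, the members' median was 0.34, no member passed, and 11 were under an unadjusted p of 0.05. Epithelial markers summed to 9597 to 12047 in males and 8182 to 10918 in females, and none of the 10 passed. Skeletal muscle markers summed to 45.2 to 66.2 in males and 22.3 to 55.5 in females. Of these 10 markers 7 were tested, 2 (Ckm and Tnnt3, 0.93 each) were higher in males at an unadjusted p under 0.05, and none passed. Of the myosin heavy chains that define them, Myh4 was listed at 0 in all 12 mice, Myh1 was at most 0.563, and Myh2 was 0.218 to 1.21, with a mean of 0.679 in males and 0.535 in females. The light chains Mylpf and Myl1 were above 0 in all 12 mice, with means of 7.54 and 2.55 in males and 6.70 and 3.51 in females. Markers of interstitial cells of Cajal, the pacemakers of the muscle, summed to 139 to 226 in males and 131 to 268 in females, and those of pericytes and vascular muscle to 51.4 to 66.6 and 35.8 to 79.0. The part of these cells in the difference was not tested.

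Lists of related genes that are no members were read beside them. Of 34 other smooth muscle genes tested, 19 were higher in males at an unadjusted p under 0.05, 2 (Bmp5 and Smoc2) were lower, and 1 passed the threshold, with a median of 0.31. It was Ppp1r12c, a targeting subunit of myosin phosphatase, at 95.1 to 119 in males and 59.0 to 93.9 in females (0.50, limma adjusted p = 0.0328). The largest differences were those of Sgca (1.14), Pcp4 (0.92) and Lims2 (0.62). Another muscle gene, named after its values were seen, was Myom1, myomesin of the sarcomere, at a mean of 20.3 in males and 12.1 in females (0.76, limma adjusted p = 0.0228). Of the 14 tested genes of serum response factor and its partners none passed and 2 were higher at an unadjusted p under 0.05, with the largest differences in Srf itself (0.35), Wwtr1 (0.31) and Tead1 (0.27).

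Between the genotypes no gene of these lists passed. The largest differences were -0.44 for Sgca, -0.30 for Flnc and -0.21 for Lims2 among the other smooth muscle genes, and 0.46 for Mef2c, -0.20 for Klf4 and -0.19 for Yap1 among the partners of serum response factor. Between the litters 3 genes of the lists passed, all lower in litter B. They were Mrtfb (-0.36, limma adjusted p = 0.0297), a coactivator of serum response factor, and, named after their values were seen, the caveolar protein Cav1 (-0.57, limma adjusted p = 0.0148) and the adhesion protein Parva (-0.39, limma adjusted p = 0.0382). The largest differences beside these were -0.77 for Actc1, -0.75 for Bmp5 and -0.66 for Sgcd, and -0.64 for Mef2c and -0.55 for Lmcd1, none of which passed.

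The transcripts behind each gene sum were examined next. The table lists 265 transcripts of the 34 members, and the transcript with the highest mean share led in all 12 mice for 24 members. It held at least 90% of the sum in 13 members and under 50% in 8. Acta2, Hspb7, Kcnmb1 and Lmod1 have 1 listed transcript each. Myh11-201 held 89.2% ± 1.90 (SD, n = 12), with Myh11-202 at 9.89%, and Actg2-201 held 76.2% ± 10.4. Myh11 was thus carried by the same isoform in every mouse, while the split of Actg2 varied from 62.8% to 95.5%.

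Tpm1 is spliced into many tropomyosin isoforms, and 3 coding transcripts shared most of its sum. Tpm1-211 held 41.0% ± 7.72, Tpm1-214 25.9% ± 5.01 and Tpm1-215 24.6% ± 11.3 (SD, n = 12). Tpm1-215 made up 34.4% in males and 19.7% in females on average, which was not tested. Cald1 was divided among Cald1-205 (34.3%), Cald1-210 (32.4%) and a further coding transcript (22.5%). These shares are estimates that pseudoalignment makes among transcripts that share most of their sequence.

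The leading transcript of the crosslinker filamin A, Flna-215, is 738 bases long and is annotated as not coding for a protein, and it held 27.1% of the sum. Transcripts not annotated as protein coding made up 69.2% of Flna, 49.6% of Smtn, 35.2% of Pdlim7 and 31.5% of Myocd. For these members the gene sum is therefore not the level of the coding message. With protein-coding transcripts alone, Actg2 was the 1 member past the threshold between the sexes, and 0 members passed between genotypes or litters. Words of 31 bases shared with transcripts of other genes were under 5% of the leading transcript in 28 members, with a median of 0.357%. Of the 6 members with at least 5%, Tagln had the most at 53.8%, of which most was shared with Gm48529. Smtn followed at 17.4%, all with Gm11946, and Des, Synm, Itga8 and Mylk had 5.38% to 6.60%. Reads of these could be divided between the genes, so their levels are uncertain.

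**Figure D5:**
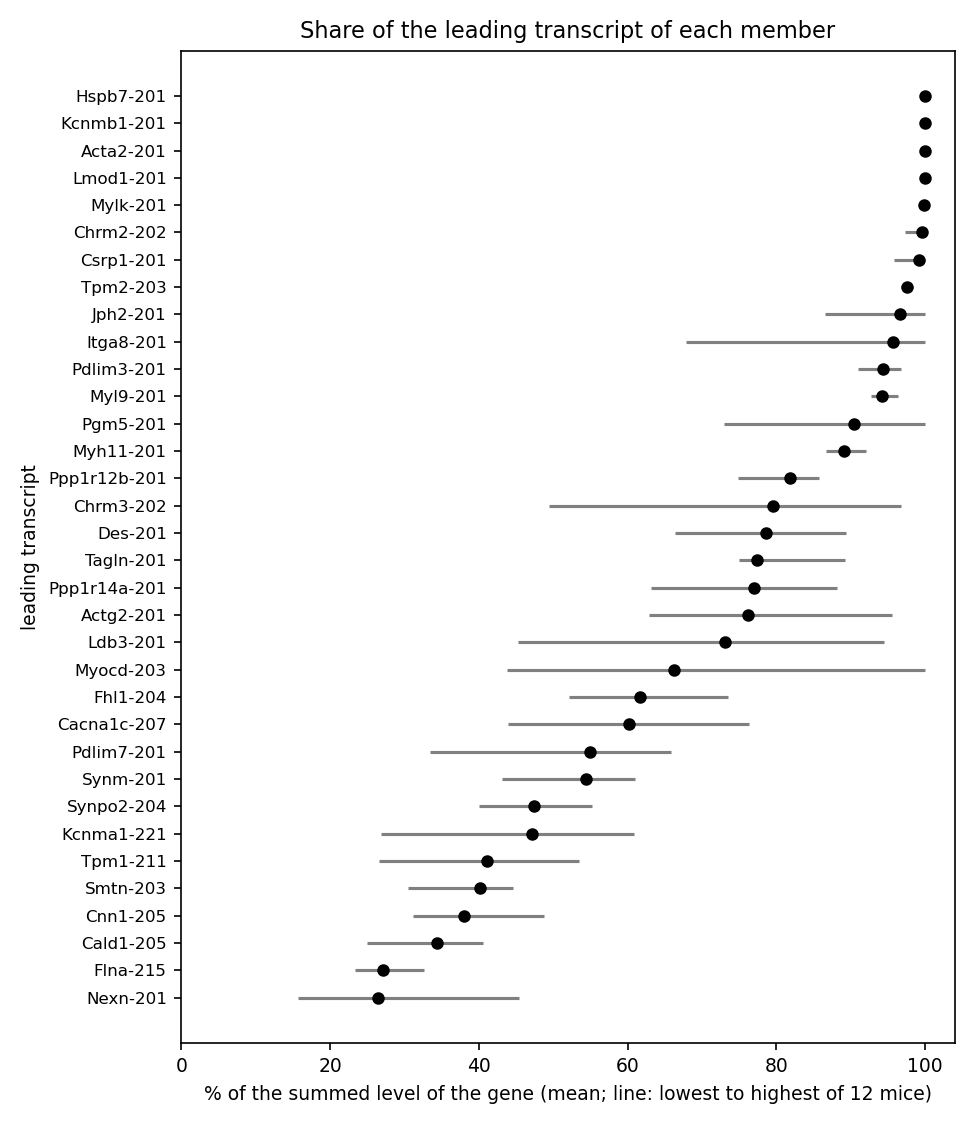
Share of the leading transcript in the summed level of each member, as the mean (point) and the lowest to highest (line) of the 12 mice. The share runs from 26.4% for Nexn-201 to 100% for members with 1 listed transcript, and Flna-215 and Nexn-201 hold the smallest shares.

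The genes outside the list whose levels were most like the mean of the members over the 12 mice were, by Pearson's r of the log2 values, Tns1 (0.98), Scube2 (0.96), Ckm (0.95), Shisal1 (0.95), Adcy5 (0.95), Stum (0.95), Rbpms (0.95), Hspb8 (0.95), Slc2a4 (0.95) and Mrvi1 (0.95). Tns1 encodes tensin, which links actin to adhesions, Rbpms an RNA-binding protein of muscle, and Ckm the muscle creatine kinase. Of the 15846 genes compared, 40 had an r of at least 0.9 and 9 of -0.9 or lower. The lowest were Steap1 (-0.94), Abracl (-0.93), Tspan8 (-0.92), Eef1g (-0.92), C1galt1c1 (-0.92), Gmcl1 (-0.91), Atp5f1 (-0.90), Chmp5 (-0.90), Hspe1 (-0.90) and Rpa3 (-0.90).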

How the data were processed

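Whole-wall colon libraries of 12 mice were compared by the labelled genotype, litter and sex. The authors pseudoaligned reads with kallisto to the mouse transcriptome (build mm10 per the labels, with CASAVA and sleuth also named), and the deposited signal is TPM per transcript with totals that differ between mice, by a scaling not given in the sources used here. The study states the version of kallisto and 1 approximate depth for all libraries. The depth of each library and the use of strand are not given in the sources used here. The deposited p-values and q-values of the authors' own genotype test were not used. Repeated entries (781 of 113974) were dropped, 28 genes whose symbols had turned into dates were renamed, and transcripts were summed per gene. Plans had been written for scaled TPM without counts, and tests for counts were not run.

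A mean of 0.5 or more over the 12 mice was required, which 15880 genes had. Log2(value + 0.5) entered two-sided tests of limma 3.58.1 (R 4.3.3, lmFit, eBayes with trend), and p-values were adjusted over all genes tested by the Benjamini-Hochberg method, with a threshold of 0.05. A fold change on this scale understates that of low genes. Genotype had no covariate, litter had genotype, and sex had genotype and litter. The comparison of the sexes was added after the values of the members had been seen. The fits were tested on simulated data. The replicates are separate mice, and p-values measure the spread between them. Pairwise r of the 12 mice over genes was 0.914 to 0.972.

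The members and all lists were chosen with earlier results of these data known, so counts of members are given beside those of all genes, with no test of the list. Values in every mouse were planned for Myh11, Actg2, Acta2, Des, Mylk, Myocd, Kcnmb1, Chrm2 and Chrm3, for the 3 members with the largest difference between genotypes and between litters, and for members past the threshold, and the same rule was applied to sex. Of each other list reported the 3 genes with the largest difference are named, 1 list is not reported here, and of all other genes the 10 with the highest and the 10 with the lowest r. Positions are those of GENCODE M21 on GRCm38. Shared words of 31 bases were counted in its transcripts. Alternatives were pseudocounts, filters, scalings, eBayes settings, covariates, subsets of mice, protein-coding transcripts alone and leaving out each mouse. Python 3.11.15, NumPy 2.4.6, pandas 2.3.3 and matplotlib 3.10.9 were used.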

Additional observations from a re-analysis of the deposited data

Results flagged for a closer look

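Each of the 34 members was examined in 6 groups of mice for a single value far from the rest (Dixon's test, 95% level). It stood apart in 11 of 210 groups, including those of the summed share, and chance flags about 1 in 20. In the Spry2IEKO group the highest value was that of replicate 8, the only male, for 8 members. It was 1884 for Actg2 (others 832 to 1096), 772 for Myh11 (others 244 to 438), 1413 for Myl9 (others 382 to 699) and 1595 for Tpm1 (others 802 to 1017). It was 1491 for Tpm2 (others 530 to 773), 2247 for Tagln (others 782 to 1307), 113 for Synpo2 (others 61.9 to 78.3) and 854 for Flna (others 386 to 558). These 8 values belong to 1 mouse and to genes that rise and fall together, so they are not 8 separate events.

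The same mouse stood apart in litter B for Cacna1c, the calcium channel of smooth muscle, at 7.38 (others 3.39 to 4.50). In litter A the dense body protein Pdlim3 was 149 in Spry2FF replicate 2 (others 95.4 to 111). Among the females Chrm2 was 11.9 in Spry2IEKO replicate 5 (others 7.46 to 9.05).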

How the results depend on the processing

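No member passed between the genotypes under any alternative run. Between the litters 1 member passed with the same total for every mouse (Kcnma1), and 0 to 2 when a mouse was left out (2, Kcnma1 and Pgm5, without Spry2IEKO replicate 8). Between the sexes 2 members passed, and 1 did without the filter on low values, with quantile normalization, with eBayes without trend, with no covariate and with protein-coding transcripts alone. The count was 0 in Spry2FF mice, litter A or litter B alone, and 0 to 2 when a mouse was left out, with 0 without Spry2IEKO replicate 8. The summed share was 0.493 percentage points higher in males, and 0.258 without Actg2, Acta2, Myl9 and Tagln, which hold a large part of the sum by construction. The median sex difference was 0.34 to 0.64 when a mouse was left out, and the median genotype difference -0.24 to 0.00. Of 1575 values of single members under the alternatives, 22 lost their call, all between the sexes (4 of Actg2, 18 of Synpo2). Between the litters 3 gained one, and none turned its direction after a call. Differences without a call did change direction. With litter and sex in the fit the genotype difference of Actg2 went from -0.07 to 0.22 and that of Myh11 from -0.20 to 0.04. Causes were not tested.

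Counts over all genes moved more. Between the genotypes 5 genes passed, 1 with sex as a covariate and 11 without Spry2IEKO replicate 8. Between the litters 696 passed, 422 without the filter, 1456 with the same total for every mouse, 1100 with protein-coding transcripts alone, 1 in females alone and 180 at the fewest when a mouse was left out. No paired analysis was possible because the replicate numbers run through all 12 mice and the genotypes share none. The depth of each library is not given in the sources used here, so the counting error of the smallest values, such as those of Chrm3 and Myocd, could not be computed.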
